A study of Mus musculus with 18 samples.

Results

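Primitive endoderm, the extraembryonic layer that lines the blastocyst cavity and goes on to form the yolk sac endoderm, was followed in mouse embryonic stem cells (mESCs) through 8 of its best known genes among the 18659 genes measured. The genes were chosen by name: *Gata4*, *Gata6*, *Sox17*, *Sox7* and *Foxa2*, which encode transcription factors, *Pdgfra* and *Cubn*, which encode cell surface receptors, and *Dab2*, which encodes an endocytic adaptor. This choice was made with earlier results of these data known. In the inner cell mass, FGF4 released by epiblast precursors acts through FGF receptors and ERK to raise GATA6 in neighbouring cells, while NANOG opposes it. GATA6 then brings on SOX17, GATA4 and SOX7 in turn. mESC cultures grown in serum and LIF are known to hold a minority of cells that carry endoderm transcripts beside cells high in NANOG.

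The cells were male E14 mESCs, an established line, grown on gelatin with FCS and LIF and transfected for 24 h with siRNA, and rRNA-depleted RNA was sequenced from 3 replicate sets, 16 libraries in all. In set 1 there were a scrambled control siRNA (scr, 1 library) and 3 libraries, named 1a, 1b and 1c, of SP, a commercial siRNA pool against *Stag1*. *Stag1* encodes a subunit of cohesin, the complex that holds DNA in loops and sister chromatids together. Sets 2 and 3 each held 1 library of scr, SP, 3p (an siRNA pool against the 3′ end of *Stag1*), 5p (a single custom duplex against the 5′ end) and SATS (an enzymatically prepared siRNA mix against an alternative first part of the transcript), with untreated cells in set 2 and a luciferase siRNA control in set 3. The labels give no genetic change in any group, and the siRNA is the only difference they give within a set. Values are reads per gene divided by 1 size factor per library, called normalized reads here. *Stag1* itself stood at 25.4%, 31.1% and 32.8% of scr in SP 1a, 1b and 1c, at 17.3% to 23.5% with SP, 3p and 5p in sets 2 and 3, and at 50.5% and 49.7% with SATS. Set 1 was shallow, with 1883691 to 4321867 reads a library outside *Rn45s*, the precursor of ribosomal RNA, against 25978759 to 36332493 in the other sets. A single read was worth 3.22 to 8.05 normalized reads in set 1 and 0.353 to 0.479 in sets 2 and 3, so set 1 gives coarse values for genes of this level.

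Start-site sequence is shown for 3 genes that parted in set 1, *Cubn* and *Pdgfra*, which were far lower in SP 1b and 1c than in scr, and *Dab2*, which was past 2-fold lower only in SP 1b. The RefSeq sequence of the 250 bases before a transcript start was found for 4 of the 8 genes (GRCm38.p6). *Gata4*, *Sox7* and *Sox17* were not matched and *Gata6* was not used. The words of 6 letters made of GATA with A or T before it and A or G after it, to which GATA factors are known to bind, were searched on both strands and are in capitals where found.
*Cubn*, chr2:13491877-13492126, minus strand: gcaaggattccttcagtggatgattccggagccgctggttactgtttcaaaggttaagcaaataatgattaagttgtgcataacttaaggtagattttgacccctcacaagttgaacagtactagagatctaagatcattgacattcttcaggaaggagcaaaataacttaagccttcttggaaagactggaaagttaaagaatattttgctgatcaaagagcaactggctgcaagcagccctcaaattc
*Pdgfra*, chr5:75152001-75152250, plus strand: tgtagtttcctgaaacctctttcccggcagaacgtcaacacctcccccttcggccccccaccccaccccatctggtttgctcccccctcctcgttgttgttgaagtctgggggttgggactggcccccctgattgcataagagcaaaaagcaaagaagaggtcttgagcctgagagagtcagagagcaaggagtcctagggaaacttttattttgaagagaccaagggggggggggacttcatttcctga
*Dab2*, first start, chr15:6299539-6299788, plus strand: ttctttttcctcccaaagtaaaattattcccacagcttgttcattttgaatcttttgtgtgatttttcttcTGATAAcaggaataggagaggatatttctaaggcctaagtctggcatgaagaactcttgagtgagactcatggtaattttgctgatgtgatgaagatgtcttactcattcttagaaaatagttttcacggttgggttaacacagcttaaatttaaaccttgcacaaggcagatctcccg
The first *Dab2* start had TGATAA 179 bases ahead of it, and the *Cubn* and *Pdgfra* windows held none of the words. The only other match was AGATAA, 183 bases before the third start of *Foxa2*. At least 1 GATA word is found in 26.5% of the 32851 promoter windows of this length. The SOX word ATTGTT, in 9.42% of all windows, was in none of the 7 windows of these genes. A match is a description of letters and not of a bound site.

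On GRCm38, *Gata4* lies on chromosome 14 (63198922 to 63271692, minus strand) and *Sox7* on the same chromosome (63943673 to 63950732, plus strand). *Gata6* lies on chromosome 18 (11052064 to 11085635, plus), *Sox17* on chromosome 1 (4490931 to 4497354, minus) and *Foxa2* on chromosome 2 (148042877 to 148046969, minus). *Cubn* shares chromosome 2 (13276338 to 13491813, minus), while *Pdgfra* lies on chromosome 5 (75152292 to 75198215, plus) and *Dab2* on chromosome 15 (6299788 to 6440712, plus). Reads were counted over exons. *Gata6*, *Sox17*, *Pdgfra*, *Dab2* and *Cubn* each overlap at least 1 annotated gene on the opposite strand, and strand was not stated to be used for all libraries, so their reads cannot be fully told apart from those of the overlapping genes.

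**Figure D1:**
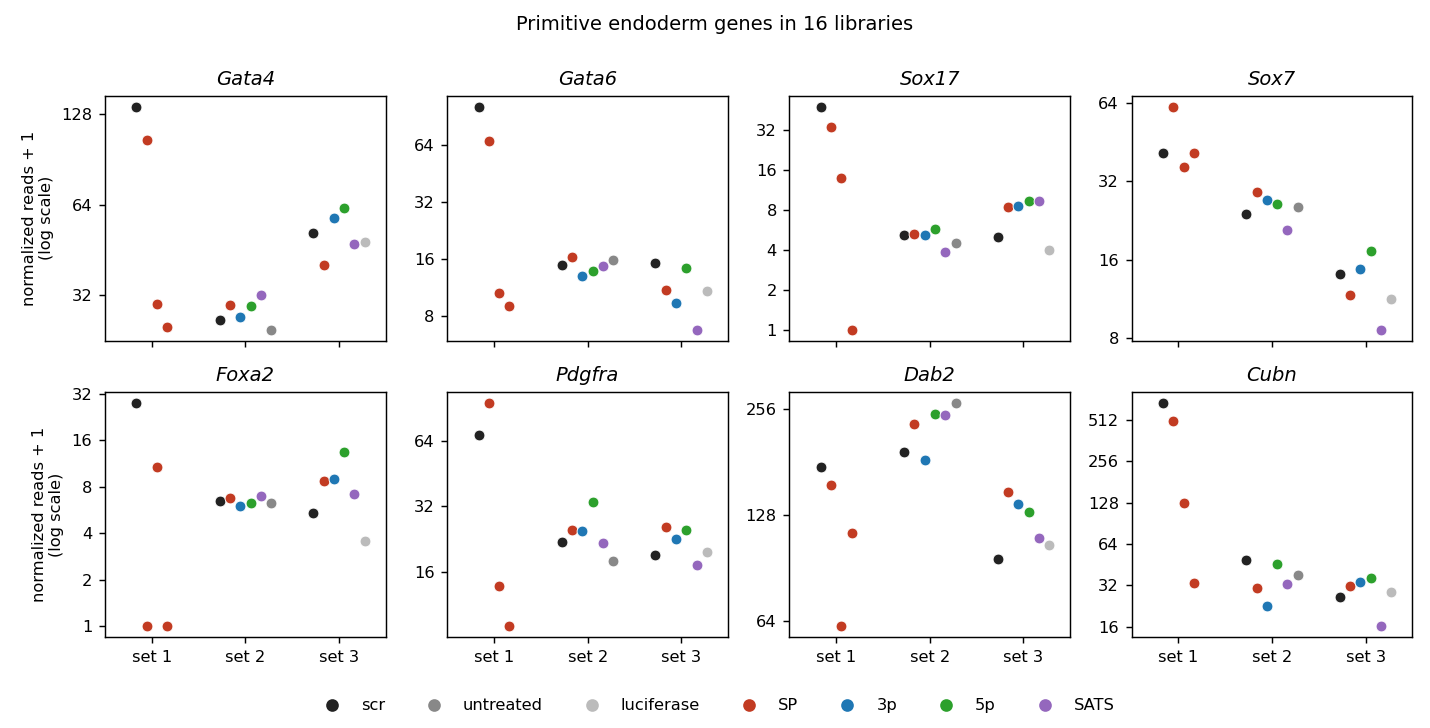
Normalized reads plus 1 (log scale, a separate range in each panel) of the 8 primitive endoderm genes in 16 libraries, 1 point a library, arranged by replicate set and coloured by siRNA or control. In set 1 the scr and SP 1a points of *Gata4*, *Gata6*, *Sox17*, *Pdgfra* and *Cubn* stand above every point of sets 2 and 3, while SP 1b and 1c lie far below them.

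In set 1, most of the 8 genes were high in scr and in SP 1a and much lower in SP 1b and 1c. Summed over the 8 genes, normalized reads came to 1266 in scr, 1015 in SP 1a, 296 in SP 1b and 225 in SP 1c, or 80.2%, 23.4% and 17.8% of scr in the 3 SP libraries. The sums rest on 189, 216, 92 and 28 reads. *Cubn* alone gave 676 of the 1266 in scr. Without it, a choice made after seeing the data, the other 7 genes summed to 589, 512, 170 and 193, or 86.9%, 28.9% and 32.8% of scr, so that SP 1c was no longer the lowest. SP 1a was thus near scr and the other two SP libraries were far below both, while *Stag1* was at 25.4% to 32.8% of scr in all 3. How 1a, 1b and 1c differ is not given in the sources used here. In bulk RNA, fewer cells of a type and less RNA per cell cannot be told apart. With 1 scr library in this set there is no replicate check, and its differences are described without a p-value.

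*Gata6*, the first of the lineage factors, had 100 normalized reads in scr, 65.8 in SP 1a, 9.65 in SP 1b and 8.05 in SP 1c. SP 1b was at 9.61% of scr (95% exact interval from read counts, 1.78% to 34.0%) and SP 1c at 8.02% (0.190% to 52.1%), resting on 3 reads and 1 read against 15 in scr. Such intervals cover counting error only. *Gata4*, which follows it, had 134 in scr, 103 in SP 1a, 28.9 in SP 1b and 24.2 in SP 1c. That put SP 1b at 21.6% of scr (8.66% to 49.7%) and SP 1c at 18% (3.43% to 60.8%), with both intervals below the level of scr.

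*Sox17*, an early SOX factor of the lineage, had 46.9 in scr, 32.9 in SP 1a, 12.9 in SP 1b and 0 in SP 1c. Its interval in SP 1b reached from 5.89% to 108% of scr. The 0 reads of SP 1c, against 7 in scr, gave an interval from 0% to 83.4% of scr. With the 0 put at a floor of 3 reads, scr was 1.94-fold higher, which is not a lower bound. *Foxa2*, a forkhead factor shared with embryonic endoderm, had 26.8 in scr, 0 in SP 1a, 9.65 in SP 1b and 0 in SP 1c, from 7 reads in the whole set, and no order can be read from them.

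*Sox7*, a later SOX factor that is also made in endothelial cells, did not follow the others. It had 40.2 normalized reads in scr, 61.1 in SP 1a, 35.4 in SP 1b and 40.3 in SP 1c. The low pair of libraries stood at 88.0% (29.8% to 290%) and 100.2% (24.2% to 394%) of scr, with intervals that reach well to either side of it.

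Among the surface and trafficking genes, *Cubn*, the cubilin receptor that takes up protein ligands in the visceral endoderm, gave the clearest values. It had 676 normalized reads in scr, 503 in SP 1a, 125 in SP 1b and 32.2 in SP 1c, from 101, 107, 39 and 4 reads. SP 1a was at 74.4% of scr (56.1% to 98.6%), SP 1b at 18.5% (12.5% to 27.1%) and SP 1c at 4.76% (1.27% to 12.6%). The 3 intervals do not overlap except for an edge between SP 1b and 1c.

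*Pdgfra*, the PDGF receptor that marks the lineage from its first salt-and-pepper stage, had 67.0 in scr, 94.0 in SP 1a, 12.9 in SP 1b and 8.05 in SP 1c. The low pair was at 19.2% (4.40% to 66.6%) and 12% (0.277% to 84.5%) of scr. *Dab2*, the adaptor that links such receptors to clathrin, had 174 in scr, 155 in SP 1a, 61.1 in SP 1b and 113 in SP 1c. Only SP 1b, at 35.1% (18.4% to 65.9%), had an interval below scr.

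**Figure D2:**
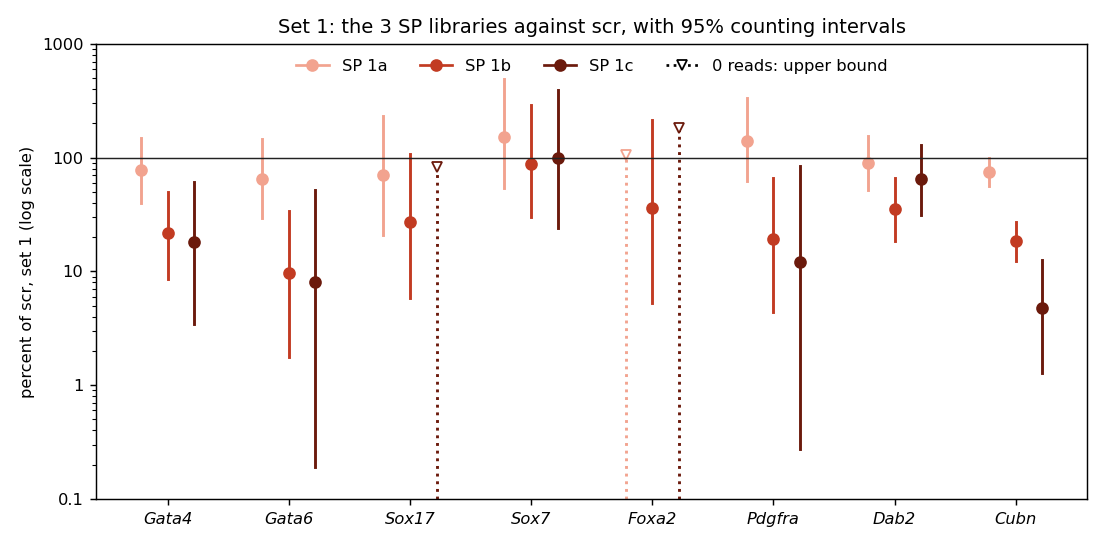
Normalized reads in SP 1a, 1b and 1c as a percentage of scr in set 1 (log scale), with 95% exact intervals from read counts as lines and, for libraries with 0 reads, the upper bound as an open triangle on a dotted line. *Cubn* is at 74.4%, 18.5% and 4.76% of scr, and *Sox7* at 152%, 88.0% and 100.2%.

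At a limit of 2-fold, 7 of the 8 genes were lower than scr in SP 1b, all but *Sox7*, and 4 were lower in SP 1c, *Gata4*, *Gata6*, *Pdgfra* and *Cubn*. The same 4 were lower in both libraries and none of the 8 was in SP 1a. Over the 13146 genes with at least 10 reads in set 1, a limit that *Foxa2* misses, 6.46% were lower in SP 1b, 8.34% in SP 1c, 3.07% in both and 5.48% in SP 1a. Zeros were put at the floor of 3 reads for these counts, and lower counts that were not 0 were kept. *Gata6* and *Pdgfra*, at 1 read each in SP 1c, were thus counted there. *Sox17*, with 0 reads in SP 1c, came to 1.94-fold at the floor. *Foxa2*, with 0 in SP 1a and 1c, came to 1.90- and 1.11-fold. The floor alone kept these 0 values from being counted as lower. The shares of the 8 genes in SP 1b and in both libraries were thus above those of all genes and the share in SP 1a was not. In SP 1b, *Sox17* (4 reads against 7 in scr) and *Foxa2* (3 against 4) were counted with intervals that reach above scr, to 108% and 213%. The 8 genes were chosen with earlier results of these data known, so the shares are a description and not a test.

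Each library of set 1 was also set against the range of the 12 libraries of sets 2 and 3. In 7 of the 8 genes, all but *Dab2*, the scr library of set 1 was above all 12 libraries of sets 2 and 3, as it was for 30.7% of genes with at least 10 reads in set 1. The level of *Cubn* in that library was 18.4 times the mean of the scr libraries of sets 2 and 3, that of *Sox17* was 11.5 times it and that of *Gata6* 7.14 times. *Foxa2*, *Gata4* and *Pdgfra* followed at 5.46, 3.53 and 3.42 times, and *Sox7* and *Dab2* at 2.22 and 1.21 times. SP 1a was above all 12 in 6 genes, all but *Foxa2* and *Dab2*. SP 1b was above that range in *Sox17*, *Sox7* and *Cubn*, below it in *Pdgfra* and *Dab2*, and within it in *Gata4*, *Gata6* and *Foxa2*. SP 1c was above it in *Sox7*, below it in *Sox17*, *Foxa2* and *Pdgfra*, and within it in *Gata4*, *Gata6*, *Dab2* and *Cubn*. Set 1 also differs from the others in its share of *Rn45s* (69.2% to 79.1% of reads against 14.7% to 23.9%) and in depth, so a difference between sets cannot be told apart from these. Within set 1, SP 1b had the lowest share of *Rn45s* (69.2%) and SP 1c the highest (79.1%), with scr at 76.8% and SP 1a at 74.5%, and its part in the values was not tested.

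When SP was compared with scr over all 3 sets, with SP 1a, 1b and 1c averaged to 1 sample, none of the 8 genes passed an adjusted p of 0.05. The log2 fold changes, on log2(value + 1), which understates the change of low genes, ran from −0.72 (SE 0.83) for *Gata6* to 0.08 (SE 0.38) for *Dab2*, with 6 of 8 below 0 and a median of −0.38, against a median of 0.01 over all genes tested. *Cubn* had −0.68 (SE 1.32), *Foxa2* −0.65 (SE 0.75) and *Gata4* −0.51 (SE 0.61). *Sox17* had −0.26 (SE 0.98), *Pdgfra* −0.06 (SE 0.56) and *Sox7* 0.06 (SE 0.65). No gene of the 15970 tested was called by limma (0%), with or without the replicate set as a block (0%), although 84 and 935 had an unadjusted p under 0.05. edgeR called 0 without the block and 66 with it, and DESeq2 called 1. The lowest adjusted p of the 8 was 0.255, for *Cubn* by edgeR with the block. Without set 1, *Sox17*, *Foxa2* and *Pdgfra* turned to 0.39, 0.38 and 0.30, and *Gata4*, *Gata6* and *Cubn* stayed below 0, at −0.09, −0.17 and −0.21.

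In sets 2 and 3, where 4 kinds of siRNA were compared with scr at a greater depth, none of the 8 genes passed the test, and single libraries ranged from 40.5% of the scr library of their set (*Gata6*, SATS of set 3, 95% exact interval 21.0% to 74.8%) to 286% of it (*Foxa2*, 5p of set 3, 137% to 639%). *Gata4* had 25.6 normalized reads in scr, 28.7 in SP, 26.2 in 3p, 28.6 in 5p, 31.0 in SATS and 23.6 in untreated cells of set 2. In set 3 it had 50.4 in scr, 39.3 in SP, 56.8 in 3p, 61.5 in 5p, 46.2 in SATS and 47.0 with luciferase siRNA. The knockdowns lay above both controls in set 2 and around them in set 3.

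*Gata6* had 13.8 in scr, 15.3 in SP, 12.1 in 3p, 12.9 in 5p, 13.8 in SATS and 14.9 in untreated cells of set 2. The values of set 3 were 14.3, 9.92, 8.37, 13.4 and 5.78 in the same order of siRNAs and 9.84 with luciferase siRNA. SP and 5p of set 3 were between its controls, and 3p and SATS were below both.

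*Cubn*, the gene with the widest range in set 1, had 48.2 in scr, 29.7 in SP, 21.6 in 3p, 44.9 in 5p, 31.7 in SATS and 36.8 in untreated cells of set 2. In set 3, scr had 25.4, SP 30.5, 3p 33.0, 5p 35.2, SATS 15.2 and luciferase siRNA 27.4. SP and 3p were below both controls in set 2 and above both in set 3, and SATS was below both in each.

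*Dab2* had 193 in scr, 231 in SP, 183 in 3p, 247 in 5p, 246 in SATS and 266 in untreated cells of set 2, and 95.2, 148, 137, 130, 110 and 104 in scr, SP, 3p, 5p, SATS and luciferase siRNA of set 3. In set 3 all 4 knockdowns were above both controls, and in set 2 untreated cells were the highest.

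*Sox17* had 2.82 to 4.77 normalized reads in set 2, with the controls at 4.19 and 3.5, and in set 3 it had 3.97 and 2.99 in the controls and 7.35, 7.49, 8.33 and 8.31 in SP, 3p, 5p and SATS. *Foxa2* had 4.99 to 6.0 in set 2, and in set 3 it had 4.36 and 2.57 in the controls and 7.72, 7.93, 12.5 and 6.14 in SP, 3p, 5p and SATS. For both, the groups of set 3 did not overlap and those of set 2 did. The values of set 3 rest on 7 to 23 reads of *Sox17* and 6 to 27 of *Foxa2*. Their 95% exact intervals against scr of set 3 reach to both sides of it, except that of *Foxa2* with 5p.

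*Pdgfra* had 21.0 in scr, 23.9 in SP, 23.7 in 3p, 32.5 in 5p, 20.8 in SATS and 17.1 in untreated cells of set 2, and 18.2, 24.6, 21.6, 24.1, 16.2 and 18.8 in scr, SP, 3p, 5p, SATS and luciferase siRNA of set 3. SP, 3p and 5p were above both controls in each set and SATS was not. *Sox7* had 19.8 (SATS) to 28.3 (SP) in set 2 and 7.58 (SATS) to 16.2 (5p) in set 3, with the controls between these.

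The knockdowns were thus all above both controls in *Sox17*, *Foxa2* and *Dab2* of set 3, or 3 of 8 genes against 8.2% of 16868 genes with at least 10 reads there, and in *Gata4* of set 2, or 1 of 8 genes against 9.43% of 16988. None of the 8 had all knockdowns below both controls in either set, against 9.98% of genes in set 2 and 8.27% in set 3. The genes of set 3 were not those of set 2. The knockdowns of a set share its controls and are not independent of each other.

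None of the 8 genes passed an adjusted p of 0.05 in any comparison of sets 2 and 3 by limma, without or with the replicate block, nor by edgeR in either form. Over all genes tested by limma, 0.00606% were called with SP, 0.00606% with 3p, 0.0121% with 5p and 0% with SATS, and with the replicate block 0.746%, 0.285%, 2.37% and 2.64%. With the block, 123, 47, 391 and 436 genes were called, among them *Stag1* with SATS (adjusted p = 0.63 by limma without the block and 0.0013 with it) and none of the 8. For SATS without the block, 650 genes had an unadjusted p under 0.05, edgeR called 0 and DESeq2 3. The lowest adjusted p of the 8 with the block was 0.223, for *Dab2* with 5p (log2 fold change 0.40, SE 0.15), followed by 0.235 for *Dab2* with SP (0.44, SE 0.15). *Dab2* was higher than scr in both sets with each of these siRNAs. *Pdgfra* with 5p had 0.49 (SE 0.21, adjusted p = 0.26 by limma with the block). These 3 had unadjusted p values under 0.05 by limma with the block, and 0 of the 8 had any without it. They were 2 of the 8 genes with 5p and 1 of the 8 with SP. Over all genes tested with the block, the shares were 15.7% with 5p and 12.5% with SP, so these counts are near what all genes gave.

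With SP, 5 of 8 log2 fold changes were above 0, with a median of 0.15 and a range from −0.21 for *Cubn* to 0.44 for *Dab2*. With 3p, 6 of 8 were above 0, with a median of 0.16 and a range from −0.45 for *Gata6* to 0.38 for *Sox17*. With 5p, 7 of 8 were above 0, with a median of 0.31 and a range from −0.09 for *Gata6* to 0.64 for *Foxa2*. With SATS, 4 of 8 were above 0, with a median of −0.01 and a range from −0.65 for *Cubn* to 0.27 for *Dab2*. Over all 16490 genes, 50%, 49%, 52.5% and 49.3% were above 0 with SP, 3p, 5p and SATS. The comparisons share their scr libraries and are not independent of each other. The SE of each value was 0.25 to 0.62 without the block and 0.15 to 0.36 with it, and a change must exceed its SE several-fold to pass. *Stag1* with SATS, at −0.996 (SE 0.118), did not pass without the block, and *Dab2* with SP, at 0.44 (SE 0.15), did not pass with it. Changes of this size in the 8 genes could thus be missed at n = 2 a group.

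**Figure D3:**
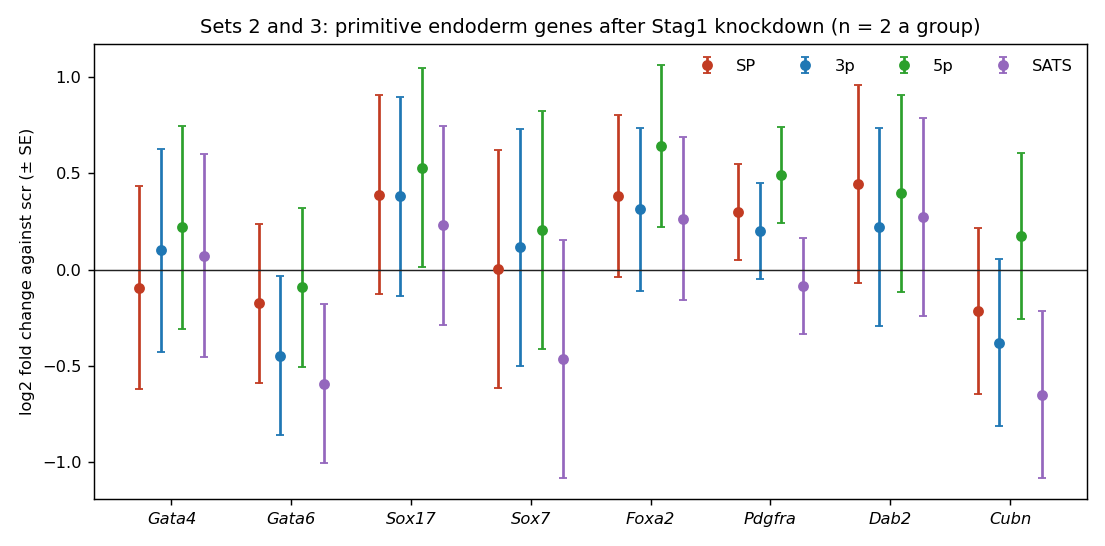
Log2 fold change against scr in sets 2 and 3 (limma on log2(value + 1), n = 2 a group, bars are standard errors without the replicate block) for the 8 primitive endoderm genes with SP, 3p, 5p and SATS. All bars are within 1.1 of 0, none of the 32 values passed the adjusted threshold, and SATS is the lowest of the 4 for all genes but *Gata4* and *Dab2*.

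The siRNAs to the 2 ends of *Stag1*, which left 17.3% to 23.5% of it, were also compared with each other. All 8 log2 fold changes of 5p against 3p were above 0, from 0.09 for *Sox7* to 0.55 for *Cubn* (SE 0.43), with a median of 0.23 against 0.02 over all genes, of which 53.2% were above 0. None passed (lowest adjusted p = 0.427 by limma with the block, for *Cubn*), and 0 of 8 had an unadjusted p under 0.05. Taken by set, 5p was above 3p in 7 of 8 genes of set 2, all but *Sox7*, in 7 of 8 of set 3, all but *Dab2*, and in 6 of 8 in both, against 29.9% in both over the 17803 genes with at least 10 reads in sets 2 and 3. Over all genes limma called 0% without the block, with 674 at an unadjusted p under 0.05, and 3.26% with it, while edgeR called 0 and DESeq2 89. With 1 library left out, the direction turned for *Gata4*, *Sox17*, *Sox7*, *Foxa2* and *Dab2*, each with a lowest value of −0.43 to −0.21. Most pairs of these genes were positively correlated across libraries, as described next, so the 8 directions are not 8 separate observations.

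At the level of sets 2 and 3 the 8 genes were low but present. Divided by exon length, the median level over the 12 libraries was 22.6 normalized reads per kb for *Dab2* (12.97 to 36.2), 9.01 for *Gata4* (6.06 to 15.8), 5.45 for *Sox7* (2.30 to 8.56) and 2.36 for *Foxa2* (1.08 to 5.27). *Pdgfra* came to 2.12, *Cubn* to 2.08 and *Gata6* to 2.02 per kb, and *Sox17* was lowest at 0.891. The ranges of all neighbours in this order overlap, and only *Dab2* was above its neighbour in 12 of 12 libraries. In scr of set 1 the order per kb was another one, led by *Cubn* at 45.3, with *Gata4* at 34.3, *Dab2* at 23.7 and *Gata6* at 15.4.

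Sets 2 and 3 themselves differed in 3 of the 8 genes, whose libraries did not overlap between the sets, against 24.3% of the same 17803 genes. *Gata4* was higher in set 3 (39.3 to 61.5 against 23.6 to 31.0), and *Sox7* and *Dab2* were higher in set 2. With the mean of each set removed, log2 levels of the 8 genes were correlated across these 12 libraries at a median Pearson r of 0.35 over 28 pairs, with 27 pairs above 0. The highest was *Sox17* with *Foxa2* (0.80), then *Gata6* with *Sox7* (0.69), and the lowest was *Gata6* with *Sox17* (−0.35). Points of 1 library share its preparation and depth, and no p is given. The same r was not computed over pairs of other genes, so the values are not read as particular to the 8 genes. Of 11056 other genes at a mean value of 50 or more, those most like the mean of the 8 included *Pigt* (r = 0.91), *Kif21b*, *Tspan14* and *Slc25a51* (0.89 each), over the same 12 libraries. None of these 4 had the pattern of set 1. *Slc25a51*, for instance, had 502 in scr and 475, 498 and 515 in SP 1a, 1b and 1c.

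Of 35 further genes of primitive endoderm and its derivatives, 34 were in the table and 22 had at least 10 reads in set 1. In SP 1a, 1b and 1c, 4, 8 and 4 of these 22 were at least 2-fold lower than scr, and 3 were lower in both 1b and 1c, *Lama1*, *Col4a1* and *Srgn*. Over all genes the shares were 5.48%, 6.46% and 8.34%, and 3.07% in both. Unlike the 8 genes, these genes were past the limit in SP 1a as often as in SP 1c. Those past it in SP 1a, *Hnf4a* and *Hhex* among them, had at most 9 reads in scr and 6 in SP 1a. This contrast thus rests on few reads. *Lama1*, the laminin alpha chain of the basement membrane that primitive endoderm lays down, had 4808 in scr, 3074 in SP 1a, 1457 in SP 1b and 693 in SP 1c. *Col4a1*, a collagen IV chain of the same membrane, had 1574, 1203, 418 and 676 in that order. *Srgn*, a proteoglycan core protein of parietal endoderm, had 100.4 in scr, 56.4 in SP 1a, 16.1 in SP 1b and 0 in SP 1c, and at most 2.89 in sets 2 and 3. *Hnf4a*, a regulator of visceral endoderm, had 33.5, 14.1, 6.43 and 0, from 10 reads. *Hhex*, a homeobox gene of anterior visceral endoderm, had 60.3, 28.2, 74.0 and 80.5.

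Others of these genes were highest in scr too, by less or in another order. *Lamc1*, a laminin chain of the membrane, had 8973 in scr, 7780 in SP 1a, 5911 in SP 1b and 6056 in SP 1c. *Amn*, the partner that brings cubilin to the surface, had 46.9, 32.9, 9.65 and 24.2 in that order. *Apoe*, a secreted lipoprotein, had 6971, 4724, 4502 and 3374. *Sparc*, a further part of the membrane, had 2036 in scr and 1820 in SP 1c. *Nid2*, also of the membrane, was not highest in scr, with 6422 there, 6779 in SP 1a and 6153 in SP 1c. *Lrp2*, the megalin receptor that works with cubilin, was lowest in scr, at 3958, and had 8255 in SP 1c. *Afp* and *Cer1*, markers of later visceral endoderm, were at 0 in all 4 libraries of set 1. *Krt8* and *Krt18*, keratins of simple epithelia, were far higher in SP 1c (2094 and 1272) than in scr (188 and 188), and higher again in sets 2 and 3.

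In sets 2 and 3, 29 of the 34 genes were tested and 0 passed without the block in any comparison. With the replicate block, *Lama1* rose with 5p by limma, with a log2 fold change of 0.71 (SE 0.12, adjusted p = 0.00694). It had 1365 in scr and 2059 in 5p of set 2, and 659 and 1174 in set 3. *Lama1* was also higher with 5p than with 3p (0.80, SE 0.12, adjusted p = 0.0027 with the block). *Krt8* rose with SATS (0.54, SE 0.13, adjusted p = 0.0374 with the block), from 13991 to 18476 in set 2 and from 4369 to 6996 in set 3. These were 1 of 29 genes with 5p and 1 of 29 with SATS, near the 2.37% and 2.64% of all genes with the block, and 1 of 29 for 5p against 3p, where it was 3.26%. No gene of these lists passed with SP or 3p by limma.

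On the input side of the lineage, *Fgf4*, the ligand, fell with 3p by limma with the replicate block (log2 fold change −0.88, SE 0.12, adjusted p = 0.00937), from 1505 to 981 in set 2 and from 1477 to 672 in set 3. *Spry4*, a feedback inhibitor that ERK switches on, fell with 3p (−0.59, SE 0.11, adjusted p = 0.0433 with the block) and with SATS (−0.47, adjusted p = 0.0374), and *Etv4*, an ETS factor of the same pathway, fell with SATS (−0.37, adjusted p = 0.0369). *Fgf4* and *Spry4* were higher with 5p than with 3p (0.97 and 0.58, adjusted p = 0.00088 and 0.0108) and *Fgfr1* was lower (−0.35, adjusted p = 0.0293 by limma with the block). These were 2 of the 8 genes of the FGF list with 3p, against 0.285% of all genes with the block, 2 of 8 with SATS, against 2.64%, and 3 of 8 for 5p against 3p, against 3.26%. None passed without the block. With SP over 3 sets, *Fgf4* was lower by edgeR with the block (−0.59, adjusted p = 0.00316), 1 of the 8 genes of this list against 0.413% of all genes. Limma did not call it there, with or without the block. *Etv5*, another ETS factor and the highest gene of the list, did not pass, at 5650 to 7360 over the 12 libraries. In set 1, *Fgf4* had 3476 in scr, 2162 in SP 1a, 2390 in SP 1b and 1425 in SP 1c.

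Summed, epiblast and naive genes were lower than scr in all 3 SP libraries of set 1, at 75.4%, 61.2% and 47.6% in SP 1a, 1b and 1c. Of 8 such genes, 5 were at least 2-fold lower than scr in both SP 1b and 1c, against the 3.07% of all genes. *Nanog*, the factor that opposes GATA6, had 5819 in scr, 3206 in SP 1a, 2480 in SP 1b and 2561 in SP 1c, and *Tbx3* had 2792, 1542, 482 and 177. *Esrrb*, *Klf4* and *Prdm14* were the other 3, with 9523, 2478 and 348 in scr and 5467, 1406 and 122 in SP 1a. All 5 were thus lower than scr in SP 1a too. For each of them the scr library of set 1 was above all 12 libraries of sets 2 and 3, as it was for 30.7% of genes. The highest value there was 4075 for *Nanog* and 912 for *Tbx3*, so these falls are measured from a high scr library. *Pou5f1*, the defining factor of the mESC state, had 11290 in scr and 11940, 10359 and 7941 in SP 1a, 1b and 1c, and its range in sets 2 and 3 was 7128 to 9193. In sets 2 and 3, *Tbx3* fell with SP and with SATS (−0.52 each, adjusted p = 0.0477 and 0.0297 by limma with the block), and did not pass without the block. With SP over 3 sets, edgeR with the block called 4 of these 8 epiblast and naive genes, all lower, against 0.413% of all genes. *Nanog* had −0.57, *Prdm14* −0.92, *Esrrb* −0.62 and *Tbx3* −0.92, at adjusted p = 0.0189, 0.0173, 0.0159 and 0.00584. Limma called 0 of them there, with or without the block.

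**Figure D4:**
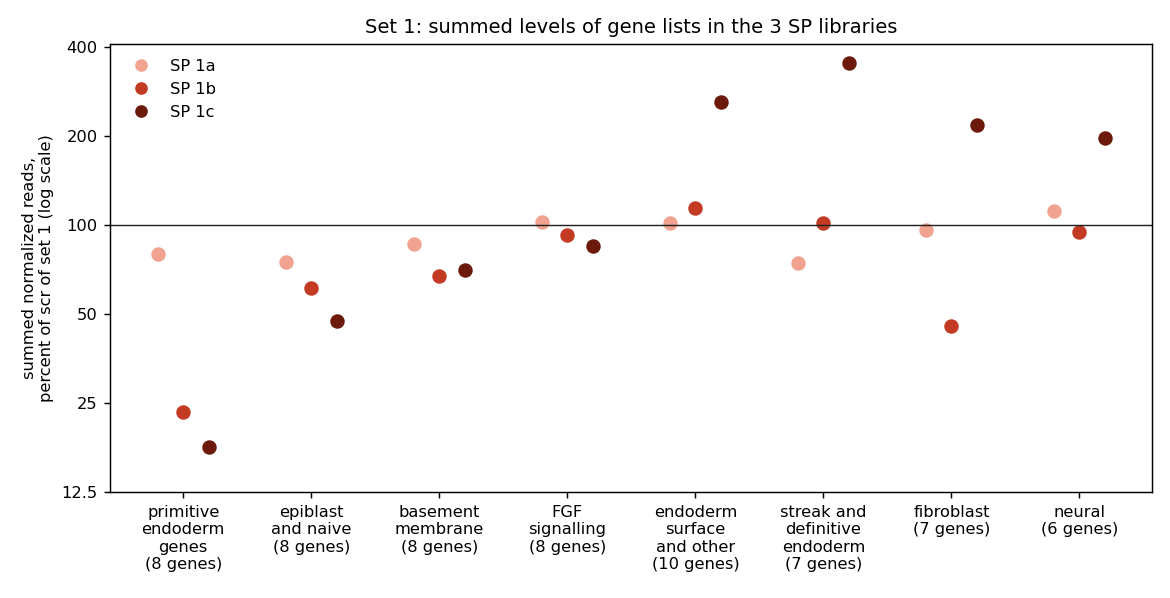
Summed normalized reads of gene lists in SP 1a, 1b and 1c as a percentage of scr in set 1 (log scale), 1 point a library. The 8 primitive endoderm genes are at 80.2%, 23.4% and 17.8% (86.9%, 28.9% and 32.8% without *Cubn*), the epiblast and naive genes at 75.4%, 61.2% and 47.6%, and the streak and definitive endoderm genes at 74.6%, 102% and 353%.

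Markers of other cell types were summed by list in set 1. In SP 1b the streak, neural, fibroblast and trophoblast lists were at 102%, 94.8%, 45.5% and 76.6% of scr, and in SP 1c at 353%, 197%, 218% and 87.8%. Streak and definitive endoderm genes, 7 in all, summed to 107 normalized reads in scr and 379 in SP 1c. *T*, the mesoderm factor, had 6.70, 4.70, 19.3 and 137 in scr, SP 1a, 1b and 1c, *Eomes* had 87.1 and 185 in scr and SP 1c, and *Gsc* was at 0 throughout set 1. The 7 fibroblast genes summed to 254 in scr, 244 in SP 1a, 116 in SP 1b and 556 in SP 1c, with *Prrx1* at 0 in all 4, and to 409 to 5771 in sets 2 and 3. The 6 neural genes summed to 1520 in scr and 2988 in SP 1c. *Nes* had 208 in scr and 1884 in SP 1c, while *Tubb3* had 1018 and 717. The rise of this sum was thus that of *Nes*, and the other neural genes together did not rise. The 7 trophoblast genes summed to 596 in scr and 338 to 523 in the SP libraries, and *Cdx2* had no read in scr. In sets 2 and 3, *Nes* and *Col1a1* fell with 5p (−0.54 and −0.75), as did *Tfap2c* (−0.42), and *Krt7* rose with SATS (0.64), with adjusted p = 0.033, 0.0255, 0.0199 and 0.0203 by limma with the replicate block. Against 3p, *Nes* was lower (−0.68) and *Col3a1* higher (0.61) with 5p, at adjusted p = 0.00723 and 0.0237 with the block. None of these 5 genes passed by limma without the block. The part of other cell types in the values of SP 1b and 1c was not tested.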

How the data were processed

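mESC RNA-seq was taken in 16 libraries of 3 sets. The members and gene lists were chosen with earlier results of these data known. Per the labels and methods, the authors mapped reads with hisat2 (mm10), took gene counts from featureCounts (strand given for paired-end samples only) and scaled them by DESeq2 size factors (submitters' version 1.14.1). The deposited values are this normalized signal. Within a library, all values were whole multiples of the value of 1 read (100%, tolerance 0.01 read), which gave the reads. The deposited table of CPM values of set 1 and the 2 samples grown in 2i were not used here.

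The model was fitted to log2(value + 1) by limma 3.58.1 in R 4.3.3 (lmFit, eBayes with trend) for genes whose values summed to 10 or more, with Benjamini-Hochberg adjustment over all genes. The mean of SP 1a, 1b and 1c entered as 1 sample. Sets 2 and 3 were fitted together over scr, SP, 3p, 5p and SATS. The calls were tested on simulated data, whose settings and outcome are not given here. No conclusion is drawn from that test on how well changes in the primitive endoderm genes are called. Alternatives were the replicate block, a pseudocount of 10, no filter, TMM scaling, edgeR 4.0.16 and DESeq2 1.42.0 on the reads, and leaving out libraries or sets. Pooled controls were a further alternative, for the counts of genes called only. Set numbers in the labels pair the samples. Within a set, the deviations of libraries from the means of their groups had a correlation of 0.80 (0.77 to 0.82, 3 pairs) in the SP comparison and 0.86 (0.81 to 0.93) in sets 2 and 3. The labels do not say that sets were separate cultures, so p-values measure the spread between these samples. Intervals of ratios are exact Clopper-Pearson intervals at 95% (SciPy 1.17.1).

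Named were the 8 genes, *Stag1*, from each list at most 2 of the highest genes and those past the threshold with or without the block, and the 5 genes most like the 8, of which 1 is not reported here. *Sparc*, *Col4a1*, *Srgn*, *Hnf4a*, *Amn*, *Afp*, *Cer1*, *Nanog*, *Esrrb*, *Klf4*, *Prdm14*, *Gsc*, *Prrx1* and *Cdx2* were named after their values were seen.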

Additional observations from a re-analysis of the deposited data

Results flagged for a closer look

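Among the 5 SP libraries of the 3 sets, SP 1a was the highest by a wide gap in 4 of the 8 genes. It had 103 normalized reads of *Gata4*, 65.8 of *Gata6*, 94.0 of *Pdgfra* and 503 of *Cubn*, with a gap to the next library of 0.81, 0.87, 0.81 and 0.80 of the whole range. Chance alone marks about 1 in 20 groups this way, and the 4 genes come from the same library, so they are not 4 separate marks. The scr library of the same set was at 134, 100, 67.0 and 676. The cause was not tested.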

How the results depend on the processing

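None of the 48 log2 fold changes of the 8 genes passed under the alternatives followed for single genes, which did not include the pooled controls. Of 336 values under those of these alternatives that kept every library, 4 turned direction. They were *Sox17* (0.0309), *Foxa2* (0.11) and *Pdgfra* (0.15) for SP over 3 sets by edgeR with the replicate block, and *Sox7* for SP in sets 2 and 3 with TMM scaling (−0.0033). Counts of all genes called moved more. For SP over 3 sets, DESeq2 called 1 and edgeR with the block 66, against 0. In sets 2 and 3, the replicate block raised the counts to 123 (SP), 47 (3p), 391 (5p), 436 (SATS) and 537 (5p against 3p), edgeR with the block to 134, 50, 397, 550 and 529, and DESeq2 to 21, 8, 66, 3 and 89. Pooling scr, untreated and luciferase controls gave 4 (SP), 2 (3p) and 27 (5p). For 5p the count was 1, against 2, with any single library left out. The other named genes were run under the same alternatives, a choice made after seeing the data, and *Stag1*, called without the block with SP, 3p and 5p, kept these calls.

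Leaving out 1 library unbalances the sets, and 28 of the 48 values, and 6 of the 22 of other named genes, then turned direction at least once. With SP over 3 sets, the ranges were *Sox17* −0.76 to 0.39, *Sox7* −0.0476 to 0.23, *Foxa2* −1.33 to 0.38, *Pdgfra* −0.30 to 0.30 and *Dab2* −0.20 to 0.44. With SP, the ranges were *Gata4* −0.57 to 0.38, *Gata6* −0.46 to 0.12, *Sox7* −0.66 to 0.67, *Dab2* −0.0624 to 0.95, *Cubn* −0.66 to 0.24 and *Tbx3* −1.41 to 0.37. With 3p, the ranges were *Gata4* −0.44 to 0.65, *Sox7* −0.33 to 0.56, *Dab2* −0.29 to 0.73 and *Cubn* −0.83 to 0.0721. With 5p, the ranges were *Gata4* −0.32 to 0.76, *Sox7* −0.18 to 0.59, *Dab2* −0.11 to 0.90, *Cubn* −0.27 to 0.63 and *Col1a1* −2.54 to 1.03. With SATS, the ranges were *Gata4* −0.40 to 0.55, *Sox17* −0.41 to 0.87, *Sox7* −1.10 to 0.17, *Pdgfra* −0.25 to 0.0850, *Dab2* −0.30 to 0.85, *Krt7* −0.50 to 1.78, *Krt8* −0.30 to 1.38 and *Tbx3* −1.41 to 0.37. With 5p against 3p, the ranges were *Gata4* −0.43 to 0.66, *Sox17* −0.21 to 0.51, *Sox7* −0.35 to 0.54, *Foxa2* −0.23 to 0.88, *Dab2* −0.29 to 0.64 and *Col3a1* −0.54 to 1.76. Depth limits set 1 to values of whole reads worth 3.22 to 8.05 each.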
